A study of Mus musculus with 17 samples.

Results

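The 6 libraries described here are those whose labels read liver, wild type (WT), DSS and either day 10 or day 20, with 3 libraries for each day, out of 17 libraries in the series. They were grouped by their labels alone, with no measured value, but the comparison was chosen with earlier results of these data known. DSS is dextran sulfate sodium, a polymer given to mice to injure the lining of the gut, and the series is about exchange between gut and liver through PEDF, the secreted protein encoded by Serpinf1. The comparison asks how gene expression in tissue labelled liver differed between the later and the earlier day. Every library of both groups carries the same genotype and the same treatment in its labels, so day is the only labelled difference. The labels give no strain, sex, age, dose or schedule of DSS, and whether the 3 libraries of a day are from different animals is not stated. The p-values therefore reflect the spread among these libraries, which may be technical.

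The liver is built mostly of hepatocytes, which secrete albumin, clotting factors and lipoproteins into blood and break down amino acids, bile acids, lipids and foreign compounds. Around them lie Kupffer cells (resident macrophages), sinusoidal endothelium, stellate cells and bile duct cells. The intestinal crypt is a different epithelium: stem cells at its base divide continuously and give rise to Paneth cells, which release antimicrobial defensins, and to goblet, enteroendocrine, tuft and absorptive cells.

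The markers went against the label for the 3 libraries labelled day 10. Albumin (Alb), which hepatocytes secrete as the most abundant protein of plasma, stood at 377, 548 and 1165 normalised CPM in the libraries labelled day 10 and at 56742, 58051 and 53491 in those labelled day 20. CPM are counts scaled to a common library total of 1000000, normalised here by the TMM method, and all levels below are on this scale, with libraries in the order of replicates 1, 2 and 3. Olfm4, a secreted glycoprotein of crypt stem cells, showed the reverse, with 4317, 2625 and 4807 CPM at day 10 against 62, 41.3 and 42.8 at day 20. Lyz1, the lysozyme of Paneth cells, was at 6600.0, 5729.6 and 784 CPM at day 10 and 71.2, 54.4 and 53.6 at day 20. In each of these 3 genes every library of one day lay outside the range of the other day. The same held for 98.4% of all genes called different between the days, so it is not particular to these markers. The libraries labelled day 10 thus had the markers of crypt epithelium at high levels and those of hepatocytes at a small fraction of their day 20 level, while the libraries labelled day 20 had those of liver. They are called the libraries labelled day 10 and day 20 throughout, and labelled day and tissue content cannot be told apart as sources of any difference given below.

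Alb lies on the plus strand at chr5:90460870-90476602 and Olfm4 on the plus strand at chr14:80000302-80023141 (GRCm38.p6, the assembly of the RefSeq gene table, equivalent to mm10). The 250 bases before each RefSeq start are shown because these genes mark the contents of the libraries labelled day 20 and day 10. Capitals mark the one match found in them to any of 4 motifs searched on both strands.
Alb, chr5:90460620-90460869: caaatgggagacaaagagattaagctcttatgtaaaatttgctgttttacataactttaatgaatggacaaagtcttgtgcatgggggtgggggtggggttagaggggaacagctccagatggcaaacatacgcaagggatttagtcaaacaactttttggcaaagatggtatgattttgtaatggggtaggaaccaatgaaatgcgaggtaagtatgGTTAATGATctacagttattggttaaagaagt
Olfm4, chr14:80000052-80000301: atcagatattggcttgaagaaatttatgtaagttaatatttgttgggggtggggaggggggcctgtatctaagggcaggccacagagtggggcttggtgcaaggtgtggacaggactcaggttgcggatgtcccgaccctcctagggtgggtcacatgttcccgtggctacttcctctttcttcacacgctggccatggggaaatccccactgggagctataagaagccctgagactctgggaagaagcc
The capitals in the Alb promoter are a match to GTTAATNAT, a form of the site of the hepatocyte and epithelial factor HNF1, and lie 32 to 24 bases before the start. The other motifs were CAAAGTCCA for HNF4, TTTATGG for the CDX factors of the gut and ATCAAAG for the TCF factors of Wnt signalling, and no 2 of them share letters in the windows printed. Over windows of 250 bases before to 50 after the start, the HNF1 motif was held by 2.48% of the 1692 genes with a promoter that were called at least 4-fold higher at day 20. It was held by 0.924% of the 2921 called at least 4-fold lower, by 0.792% of the 13128 tested genes with a promoter and by 0.94% of all 27025 genes in the promoter table. The HNF4 motif was held by 1.83%, 0.479%, 0.648% and 0.555% of the same 4 groups. The CDX motif was held by 2.95% of the genes at least 4-fold higher and 2.77% of those at least 4-fold lower, between the 2.34% of tested genes and the 3.21% of all genes in the table. The TCF motif was held by 4.25% of the genes in each direction, again between those 2 backgrounds, at 3.44% and 4.29%. A gene with more than 1 RefSeq start counts if any of its windows holds the motif. A match describes letters only.

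The libraries labelled day 20 held 39609862 to 42669857 counts and those labelled day 10 held 12742629 to 28429837, with day 10 replicate 3 the shallowest. Day 10 replicate 3 nevertheless had the most identifiers with a count (23093, against 21535 and 21695 in the other day 10 libraries and 16728 to 16888 at day 20), and its 1106 olfactory receptor genes, which neither tissue is known for, summed to 1107 CPM before TMM scaling against 389 and 444 in the other day 10 libraries and 106 to 118 at day 20. A single identifier with no match in the gene table took 13.4 to 22.1% of the counts at day 10 and 3.81 to 4.55% at day 20. No pair of libraries of a day agreed within counting noise, since the mean chi-square per gene (1 for counting noise alone) was 6.18 to 9.48 for pairs at day 20 and 66.2 to 252 for pairs at day 10. How far the depth, the unmatched identifier or the breadth of detection contribute to a difference was not tested, and values that leaving out day 10 replicate 3 moved by over 1.5 times are given with and without it for the main lists and genes.

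**Figure D1:**
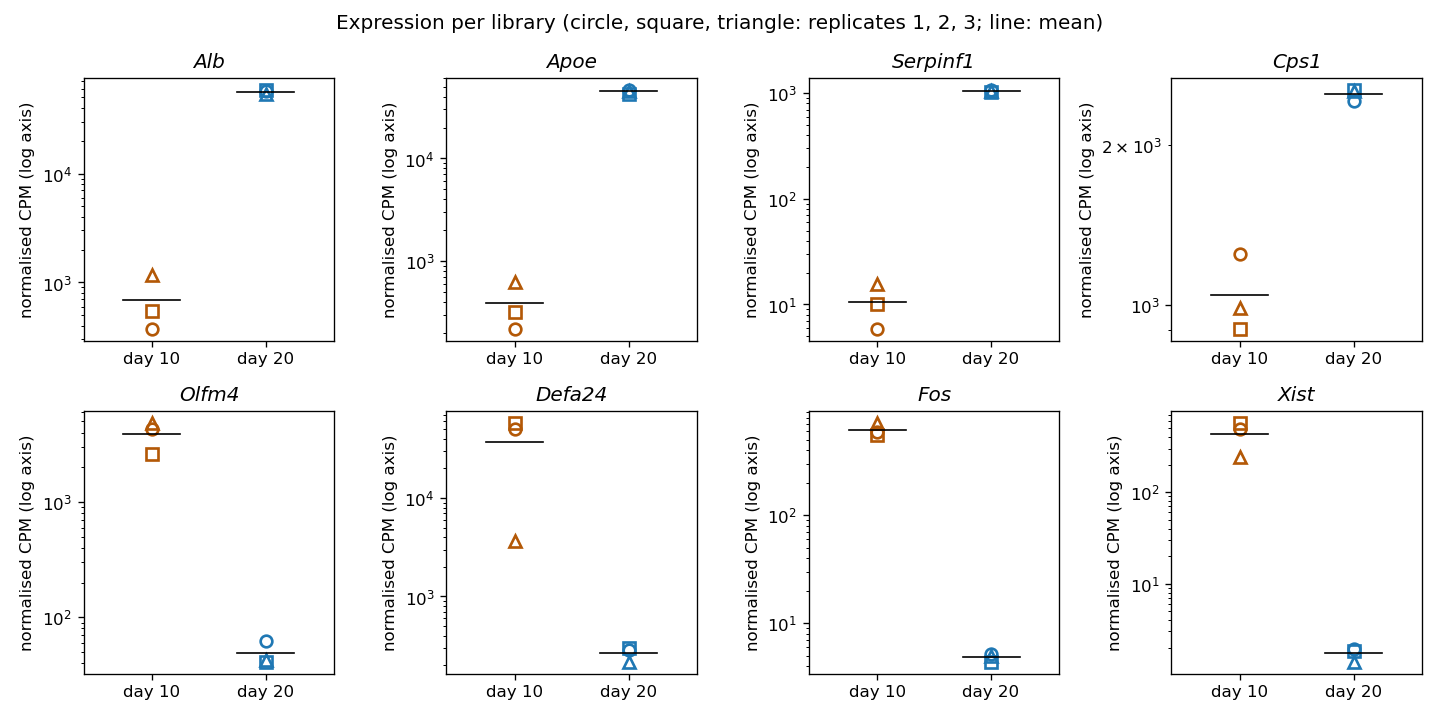
Normalised CPM (log axis, scale differing between panels) of 8 genes in each library labelled day 10 (orange) and day 20 (blue), with circles, squares and triangles for replicates 1, 2 and 3 and a line at the mean of each day. Alb, Apoe, Serpinf1 and Cps1 are higher in all 3 libraries labelled day 20, Olfm4, Defa24, Fos and Xist are lower, and the triangle for Defa24 at day 10 lies far below the other 2 libraries.

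Of 16694 genes tested with edgeR's quasi-likelihood test, 11870 (71.1%) were called at a Benjamini-Hochberg adjusted p under 0.05. 5150 genes (30.8%) were higher at day 20 and 6720 (40.3%) were lower. With scaling by total counts alone the median log2 fold change of all genes moved from -0.21 to -1.17, and the share of calls that were higher moved from 43.4% to 19.1%, so changes below are relative to the TMM scale. At least 2-fold differences numbered 3769 higher (22.6%) and 5341 lower (32.0%), and at least 4-fold differences 2255 higher (13.5%) and 3840 lower (23.0%). In 98.4% of the called genes the 3 libraries of one day did not overlap with those of the other. With this many calls, the share of a list that is called says little, and the size and direction of its members' differences are given instead. In bulk libraries fewer cells of a type and less RNA per cell cannot be told apart.

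The 10 largest rises, among genes that reached a mean of 20 CPM at either day, were all of genes known from hepatocytes or the liver. Hamp, which encodes the iron hormone hepcidin, led with 2.45, 3.42 and 6.31 CPM at day 10 and 808, 805 and 803 at day 20 (log2 fold change 7.65 ± 0.33, the second value being the standard error, adjusted p = 5.1e-10). Onecut1, a hepatocyte transcription factor, stood at 0.303, 0.367 and 0.771 CPM and 81, 82.7 and 76.6 CPM (7.45 ± 0.37). The others were Elovl3, a fatty acid elongase, and 7 major urinary protein genes (Mup4, Mup6, Mup7, Mup8, Mup12, Mup13 and Mup17), whose near-identical copies make the split of counts between them uncertain. Their log2 fold changes ran from 7.33 to 7.65 with Hamp as the highest. For each of the 10 genes all 3 day 20 libraries were above all 3 day 10 libraries, but this was a condition of their selection. The same condition was set for the largest falls.

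The 10 largest falls were mostly of genes known from gut epithelium, with Xist as an exception. AA467197 had the largest, with 30.7, 36.3 and 70.9 CPM at day 10 and 0.0368, 0.0774 and 0.108 at day 20 (log2 fold change -9.20 ± 0.47, adjusted p = 1.8e-09). It was followed by Ms4a10, Car4, Sprr2a3, Xist, Clca4b, Alpi, Gsdmc4, Gsdmc2 and Muc3, the last at -7.83 ± 0.45. Car4 is a carbonic anhydrase, Alpi is intestinal alkaline phosphatase and Muc3 is a membrane mucin. Car4 stood at 61.2, 52.4 and 136 CPM at day 10 and 0.147, 0.387 and 0.252 at day 20. Single libraries decided the size for 4 of them: without day 10 replicate 3 the log2 fold change was -7.17 for Sprr2a3 and -7.23 for Alpi, and without day 20 replicate 1 it was -9.55 for Ms4a10 (-7.83 without day 20 replicate 3) and -8.58 for Muc3. Sprr2a3, Gsdmc2 and Gsdmc4 belong to families of similar copies. At day 20 AA467197 had 1, 2 and 3 counts, Ms4a10 had 5, 2 and 0 and Car4 had 4, 10 and 7, against 53, 48 and 39 for Xist. The sizes and order of the falls that rest on so few counts are uncertain.

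Xist and the Y-linked genes separated the days in opposite directions. Xist, the RNA that silences an X chromosome in cells with more than 1, was at 489.7, 566 and 241 CPM at day 10 and 1.95, 1.86 and 1.4 at day 20 (log2 fold change -7.96 ± 0.35, adjusted p = 5.9e-10), with the limit that Tsix is transcribed across it on the other strand. The Y-linked translation factor gene Eif2s3y stood at 0.424, 0.693 and 1.93 CPM at day 10 and 67, 70.6 and 72.1 at day 20 (6.19 ± 0.37, and 7.01 without day 10 replicate 3). The Y-linked helicase gene Ddx3y stood at 0.454, 0.978 and 1.35 and 66.3, 69.5 and 72.4 CPM. Kdm5d and Uty were higher at day 20 as well, with 5.12 ± 0.65 (6.82 without day 10 replicate 3) and 5.99 ± 0.51. Of the 5 genes, 4 were higher and 1 lower at day 20. Labelled day, tissue content and this X and Y pattern split the 6 libraries in the same way and cannot be told apart.

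Plasma carrier and coagulation transcripts were present at day 10 at a low level that was similar from gene to gene within a library. The level of each of 35 plasma carrier and coagulation genes at day 10 was set against its mean at day 20. The median was 0.685% in day 10 replicate 1, 0.953% in replicate 2 and 2.14% in replicate 3, with interquartile ranges of 0.633 to 0.877%, 0.891 to 1.24% and 1.83 to 2.61%. In each library 30 or 31 of the 35 genes lay within 0.5 to 1.5 times that library's median. Replicate 3 had the highest value of the 3 day 10 libraries for 35 of 35 genes, and replicate 1 had the lowest for 33. Other hepatocyte lists varied in the same libraries. Medians were 0.566, 0.853 and 1.74% of the day 20 mean for amino acid catabolism and 13.1, 11.9 and 11.3% for the urea cycle. Eif2s3y stood at 0.607, 0.991 and 2.76% of its day 20 mean and Ddx3y at 0.655, 1.41 and 1.95%. Uty stood at 1.36, 0.916 and 2.53% and Kdm5d at 0, 2.01 and 7.60%. Kdm5d lay outside the interquartile ranges of the plasma protein genes in all 3 libraries, but on only 0, 10 and 32 counts. Eif2s3y lay outside them in replicates 1 and 3, Ddx3y in replicate 2 and Uty in replicate 1. Counts were also few for Eif2s3y (14, 17 and 40) and Ddx3y (15, 24 and 28). In the other direction, 73 stem, Paneth, goblet and enterocyte genes stood at day 20 at a median of 1.63, 1.25 and 1.32% of their day 10 mean, but with interquartile ranges that reached 6.73%. Xist stood at 0.451, 0.429 and 0.325% of its day 10 mean.

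**Figure D2:**
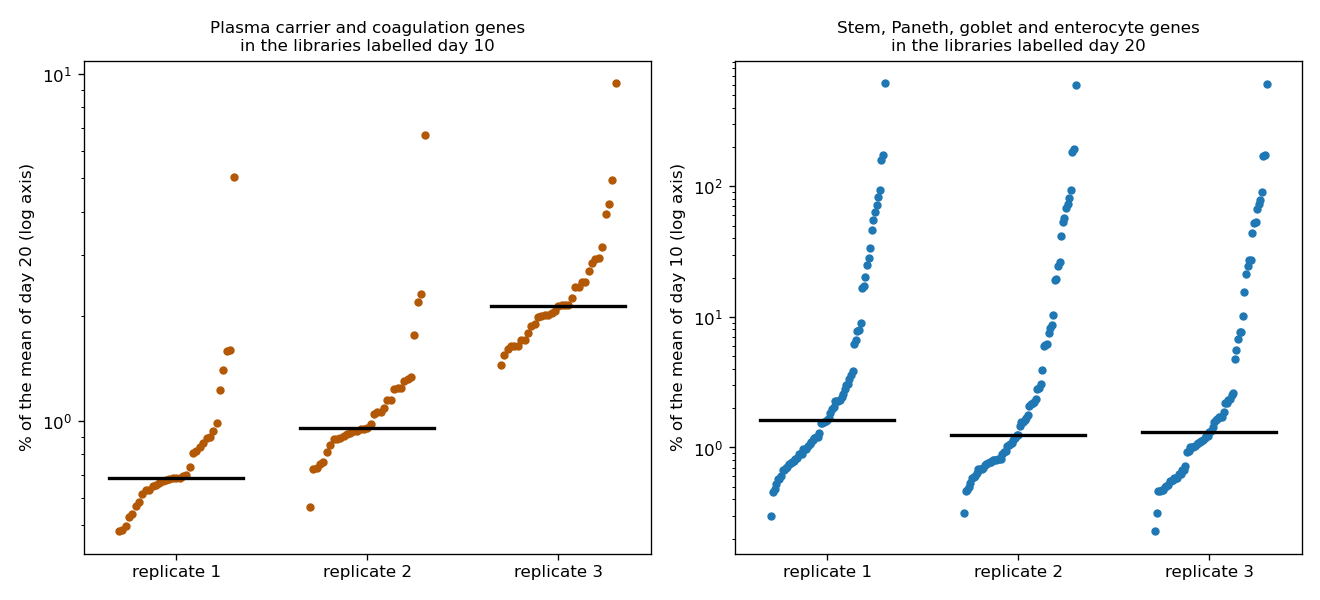
Left, the level of 35 plasma carrier and coagulation genes in each library labelled day 10 as a percentage of the day 20 mean; right, the level of stem, Paneth, goblet and enterocyte genes in each library labelled day 20 as a percentage of the day 10 mean (both log axes; each point a gene, bars the medians, values of 0 not drawn). The left medians are 0.685, 0.953 and 2.14% with narrow spreads, and the right medians are 1.63, 1.25 and 1.32% with wider spreads.

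Secreted plasma proteins were higher at day 20 without exception in 3 lists. All 15 plasma carrier genes (median log2 fold change 6.33, 6.95 without day 10 replicate 3), all 20 coagulation genes (6.21 and 6.83) and all 19 complement genes (6.08 and 6.79) were called higher, against 30.8% of all genes and a median of -0.21. For Alb the log2 fold change was 6.33 ± 0.51 (adjusted p = 1.3e-07), and 6.93 without day 10 replicate 3. Transferrin (Trf), the iron carrier of plasma, stood at 161, 231 and 502 CPM at day 10 and 18797, 18065 and 19084 at day 20. The fibrinogen chains moved as a group, with log2 fold changes of 5.86 ± 0.44 for Fga, 5.84 ± 0.42 for Fgb and 5.88 ± 0.42 for Fgg (6.50, 6.45 and 6.50 without day 10 replicate 3). Cfb, a complement protease that gut epithelium also makes, had a smaller difference, from 61.2, 55.9 and 113 to 1446, 1403 and 1461 CPM (4.23 ± 0.28). Summed over the list, the plasma carriers made up 0.117, 0.151 and 0.497% of the counts at day 10 and 9.23, 9.17 and 8.95% at day 20.

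The acute phase list, proteins that liver secretes in inflammation, was less uniform. Of 19 genes, 14 were higher, 2 were lower and 3 were not called (median 4.36). Haptoglobin (Hp), which binds free haemoglobin, went from 70.7, 102 and 232 to 3646, 3364 and 3625 CPM (4.71 ± 0.41, and 5.37 without day 10 replicate 3). The 3 genes not called were Saa1, Saa2 and Lcn2, the most strongly inducible members, and without day 10 replicate 3 the number called higher was 17. The 2 lower genes were the metallothioneins Mt1 and Mt2, which bind zinc and copper in many tissues. Mt1 stood at 147, 172 and 148 CPM at day 10 and 47.9, 35.4 and 42.2 at day 20 (-1.90 ± 0.17), and Mt2 differed by -0.95 ± 0.20.

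Hepatic amino acid and nitrogen metabolism was higher throughout, with a wide range of sizes. All 18 amino acid catabolism genes (median 6.57; 7.19 without day 10 replicate 3) and all 10 urea cycle genes (median 3.09) were called higher. Gnmt, which uses up the methyl donor S-adenosylmethionine, rose from 19.2, 28.5 and 56.6 to 3699, 3457 and 3632 CPM (6.70 ± 0.40). The urea cycle split by enzyme: Arg1, which releases urea, differed by 6.38 ± 0.41 (6.98 without day 10 replicate 3), while Cps1, which starts the cycle and is also made by small intestinal epithelium, differed by 1.25 ± 0.42 (adjusted p = 0.018). Cps1 stood at 1249, 904 and 986 CPM at day 10 and 2425, 2537 and 2526 at day 20, and its adjusted p was 0.052 without day 10 replicate 2 and 0.60 with scaling by total counts alone. Otc, another early enzyme shared with the gut, went from 183, 150.2 and 178 to 959, 1028 and 921 CPM (2.51 ± 0.18).

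Bile acid and drug metabolism showed the same direction. All 16 genes of bile acid synthesis and transport were called higher (median 6.55), among them Slc10a1, the uptake carrier of hepatocytes, at 7.15, 10.9 and 21.1 CPM and 1105, 1112 and 1109.5 CPM. Of 23 genes in the cytochrome P450 list, which includes the reductase gene Por, 21 were higher (median 6.51, and 7.14 without day 10 replicate 3). Cyp2e1, which oxidises ethanol and small solvents, went from 74.5, 108 and 198 to 12766, 13033 and 12526 CPM (6.66 ± 0.42). The 2 lower genes were Cyp2c65 and Cyp2c66, members of the Cyp2c family known from the gut, and Cyp2c65 stood at 22.6, 21 and 34.6 CPM at day 10 and 0.589, 1.08 and 0.504 at day 20 (-5.17 ± 0.33). Counts can be split between similar copies in the Cyp2c, Cyp2d and Cyp3a families.

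Lipid and glucose metabolism was higher at day 20 in most genes, with exceptions in each list. Of 18 apolipoprotein and lipoprotein genes 17 were higher (median 6.19), and Apoe, the ligand for uptake of lipoprotein remnants, went from 222, 321 and 635 to 46000.2, 42764 and 45754 CPM (6.83 ± 0.49). Apoa4, which enterocytes secrete, was not called. Without day 10 replicate 3 all 18, Apoa4 included, were called higher, with a median of 6.80. Of 27 targets of PPAR-alpha, the receptor that drives fat oxidation, 25 were higher and 2 (Pdk4 and Acot2) were not called, with a median of 3.10. Cholesterol synthesis was closer between the days, with 20 of 23 genes higher, 1 lower and 2 not called and a median of 1.89. Its lower member, the transcription factor gene Srebf2, differed by -0.54 ± 0.19. Srebf2 was not called without day 10 replicate 1 (adjusted p = 0.12) or without any 1 of the day 20 libraries. Of 16 glucose genes 11 were higher and 3 lower. G6pc, the last step of glucose release, went from 4.6, 7.62 and 16.5 to 1033, 1084 and 1016 CPM (6.78 ± 0.42; 7.44 without day 10 replicate 3), while the glucose absorber Slc5a1 (-5.99 ± 0.33) and the glycolytic genes Hk2 (-5.09 ± 0.23) and Pkm (-4.03 ± 0.18) were lower.

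Markers of both ends of the liver lobule were higher at day 20. Of 11 periportal genes 10 were higher (median 5.85), with Cyp2f2 at 15, 23.5 and 40 CPM and 3278, 3099 and 3269 CPM. Its lower member was Aldh1b1, a mitochondrial aldehyde dehydrogenase also known from crypts (-3.39 ± 0.22). Of 12 pericentral genes 9 were higher and 1 lower (median 4.97), with Cyp1a2 at 9.81, 14.4 and 27.1 CPM and 1845, 1762 and 1859.5 CPM. The lower member was the Wnt target Axin2, which is also in the crypt stem cell list (-4.10 ± 0.24), and the pericentral Oat was at 1434, 1126 and 1279 CPM and 1238, 1201 and 1245 CPM and was not called. All 11 male-biased liver genes were higher (median 6.91; 7.47 without day 10 replicate 3), with Mup20, the male urinary pheromone darcin, at 54.9, 84.2 and 167 CPM and 10419, 11342 and 11135 CPM. Of the 14 female-biased genes 10 were tested, 7 were higher (median of those tested 5.60) and 2 lower, and without day 10 replicate 3 the median was 6.52 with 8 higher. The female-biased Cyp3a41a stood at 0.939, 1.26 and 2.65 CPM and 134, 146 and 139.7 CPM, and the female-biased factor Cux2 was lower (-3.52 ± 0.30).

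**Figure D3:**
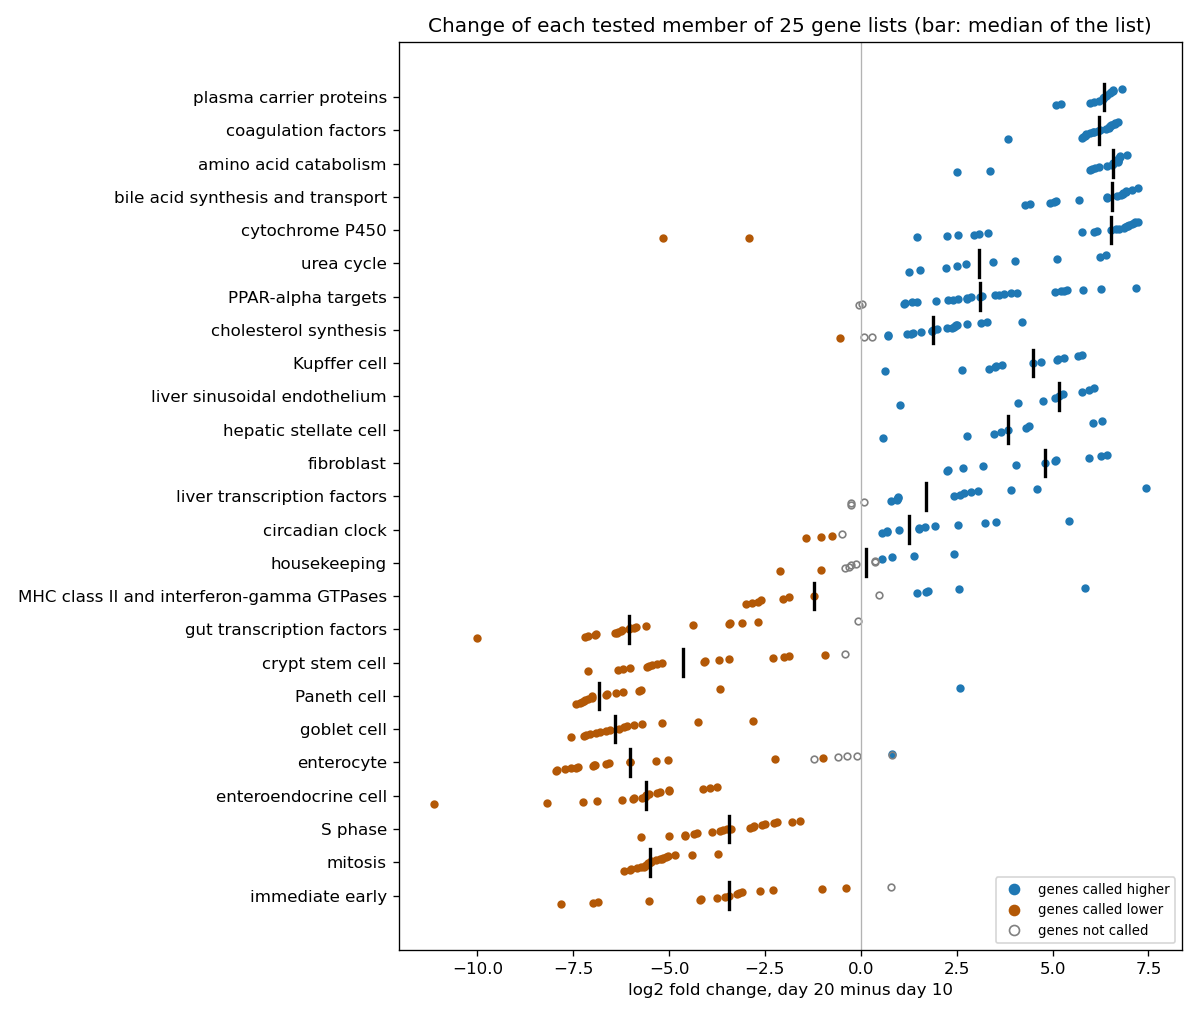
Log2 fold change, day 20 minus day 10, of each tested member of 25 gene lists (blue, called higher; orange, called lower; open, not called), with a bar at the median of each list. Hepatocyte, stromal and macrophage lists lie to the right, up to a median of 6.57, and gut epithelial, cell division and immediate early lists lie to the left, down to -6.83.

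Most liver transcription factors were higher at day 20 and most gut factors were lower, with the count of liver factors depending on the scaling. Of 16 liver factors 13 were higher and 3 (Hnf4a and Foxa1 among them) were not called, with a median of 1.70. With scaling by total counts alone 8 were higher and 3 lower, with a median of 0.81. Hnf4a, a nuclear receptor of hepatocytes and of gut epithelium, stood at 309, 266 and 268 CPM at day 10 and 231, 234 and 239.8 at day 20 (adjusted p = 0.3). It was called lower only in the fit with scaling by total counts alone and in the fit limited to the compared libraries without day 10 replicate 3 (adjusted p = 0.011). The retinoid partner receptor Rxra went from 25.7, 34.9 and 25.9 to 241, 242 and 242 CPM (3.07 ± 0.16). Of 21 gut factors 20 were lower and 1, the Wnt effector Tcf7l2, was not called, with a median of -6.05. Klf5, which maintains crypt proliferation, fell from 539.7, 581 and 400.3 to 4.38, 4.53 and 3.49 CPM (-6.94 ± 0.26). Cdx1, a homeobox gene that specifies intestine, fell from 233, 241 and 166 to 1.43, 1.04 and 1.87 CPM (-7.19 ± 0.32).

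Every list of gut epithelial cell types had a negative median. Of 18 crypt stem cell genes 17 were lower and 1 (Znrf3) was not called (median -4.64), against 40.3% of all genes called lower. The Olfm4 difference was -6.33 ± 0.36 (adjusted p = 4.1e-09), and Smoc2, a stem cell matrix protein, fell from 247, 195 and 243 to 14.1, 14 and 12.6 CPM. Of 16 epithelial adhesion and keratin genes 14 were lower and none higher (median -5.64). Epcam, an adhesion molecule of most epithelia but not of hepatocytes, fell from 1474, 1217 and 1259 to 19.3, 13.8 and 14.8 CPM (-6.36 ± 0.27), and Krt8, a keratin that hepatocytes also make, fell less, from 1992, 1844 and 2404 to 486, 460.4 and 495 CPM (-2.11 ± 0.24). In these 2 lists the 3 day 10 libraries were alike, with list sums of 6314, 4612 and 6496 CPM and 9587, 9014 and 9903 CPM.

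Secretory lineages were also lower at day 20, and day 10 replicate 3 stood apart in the Paneth and goblet lists. Of 16 Paneth genes 15 were lower (median -6.83, and -7.32 without day 10 replicate 3). The list took up 14, 13.6 and 1.51% of all counts in the 3 day 10 libraries and at most 0.0646% at day 20. Defa24, an antimicrobial alpha-defensin, stood at 50608, 57398 and 3689.8 CPM at day 10 and 285, 302 and 218 at day 20 (-7.12 ± 0.86, adjusted p = 7.8e-06), so that replicate 3 lay far below the other day 10 libraries and still above every day 20 library. Reads can be split between the near-identical defensin copies. The Lyz1 difference was -6.19 ± 0.67, and Habp2, a serine protease that liver secretes, was the one higher member of the Paneth list (2.60 ± 0.44). All 16 goblet genes were lower (median -6.42), with the mucin Muc2 at 462, 562 and 203 CPM at day 10 and 3.42, 2.78 and 2.05 at day 20. Spink4, a protease inhibitor of goblet cells, stood at 2619.9, 3142 and 382 CPM and 14.3, 16.7 and 11.9 CPM (-7.16 ± 0.67). All 19 enteroendocrine genes were lower (median -5.62), and their sum was 957, 912 and 235 CPM at day 10. That gap lay in Reg4, at 788, 747 and 52.9 CPM. The median over the members was not lower in replicate 3, at 4893, 4566 and 4973% of the day 20 mean. The granule protein gene Chga was closer between the 3 libraries at 18.4, 19.1 and 14.5 CPM.

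Absorptive genes showed the opposite pattern to the Paneth and goblet lists among the day 10 libraries. The enterocyte list summed to 1438, 1315 and 3143 CPM at day 10 and 686, 708 and 685 at day 20, with replicate 3 the highest. Of 23 genes 17 were lower, 1 was higher and 5 were not called, with a median of -6.01 that became -4.79 without day 10 replicate 3. Villin (Vil1), which bundles actin in the brush border, fell from 248, 221 and 402 to 4.45, 4.25 and 4.79 CPM (-6.01 ± 0.27). The fatty acid binder gene Fabp2 stood at 161, 161 and 342 CPM and 208, 208 and 198 CPM and was not called. Fabp2 was called lower with scaling by total counts alone (-1.18, adjusted p = 0.016). It was called higher (0.35, adjusted p = 0.0018) in the fit limited to the compared libraries without day 10 replicate 3. The peptidase gene Dpp4 was higher, from 67, 48.6 and 88.8 to 117, 125 and 115 CPM (0.81 ± 0.20), but -0.22 and not called with scaling by total counts alone. Of the 11 tuft cell genes tested 9 were lower and 2 higher (median -3.43), led by the taste channel gene Trpm5 at 23.4, 29.5 and 33 CPM and 0.147, 0.155 and 0.252 CPM. The 2 higher were Ptgs1 (2.13 ± 0.35, and 2.71 without day 10 replicate 3; adjusted p = 0.065 with scaling by total counts alone) and Il17rb (1.81 ± 0.25).

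Markers of gut segments and of mucosal defence were mostly lower at day 20, and the ileal and defence lists differed by less without day 10 replicate 3. Fabp6, the ileal bile acid binding protein, stood at 13.1, 15.6 and 270.4 CPM at day 10 and 1.29, 0.696 and 1.19 at day 20, a log2 fold change of -6.54 ± 1.10 that became -3.74 without replicate 3. Of 6 ileal genes 5 were lower (median -6.58), and without replicate 3 the median was -4.62 with 4 lower. The one higher ileal gene was Slc10a2, the apical bile acid carrier that bile ducts also use (3.83 ± 0.63, and 5.67 without replicate 3). Of 7 proximal small intestinal genes 4 were lower and 2 higher (median -2.67, and -2.64 without replicate 3), including Gata4 at 114, 82.6 and 102 CPM and 20.3, 13.9 and 12.5 CPM. Of the 7 colon genes tested 5 were lower and 2 higher (median -5.46, and -5.01 without replicate 3); Mptx1 stood at 231, 215 and 20.2 CPM at day 10, and the water channel gene Aqp8, which hepatocytes also express, was higher (6.86 ± 0.37). The other higher colon gene, Car1, differed by 3.35 ± 0.87, and by 6.58 without replicate 3, and was not called with scaling by total counts alone (adjusted p = 0.11). Of 16 mucosal defence and injury genes tested 9 were lower and 6 higher, with a median of -3.87 that was -2.20 without replicate 3. The bactericidal lectin gene Reg3b stood at 68.7, 73.2 and 878 CPM at day 10 and 16.4, 9.59 and 11.5 at day 20 (-4.77 ± 0.86; -2.49 without replicate 3), and its relative Reg3g at 146, 149.7 and 726 and 19.8, 11.3 and 12.1 CPM (-4.56 ± 0.59; -3.35). The higher members were led by Clu, a secreted chaperone that is abundant in liver (6.31 ± 0.39). The level of the whole Paneth list and of the ileal list moved in opposite directions in replicate 3, and their part in these results was not tested.

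**Figure D4:**
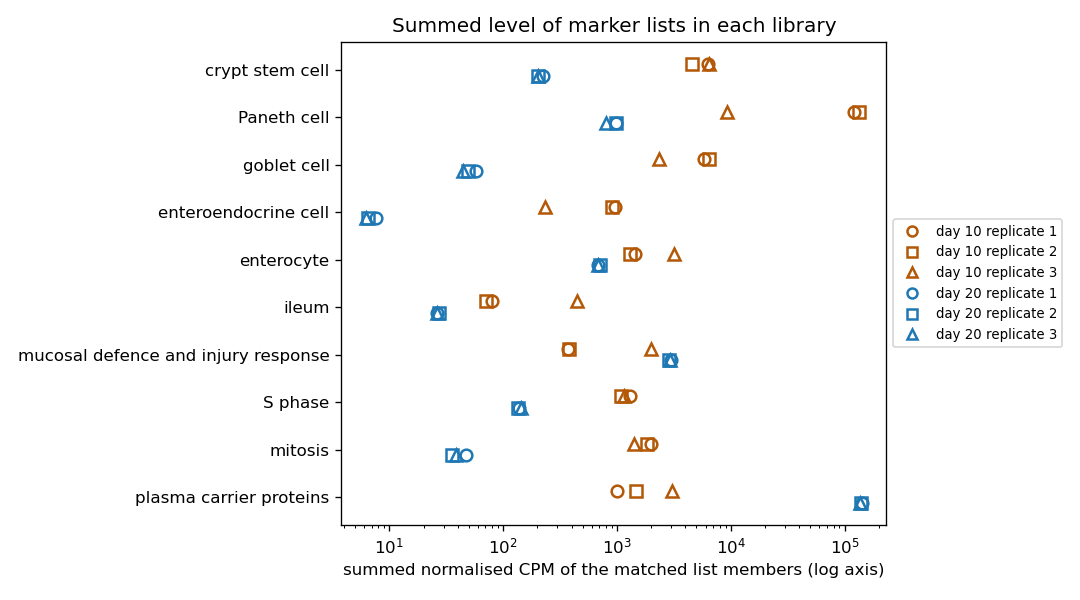
Summed normalised CPM (log axis) of the matched members of 10 marker lists in each library, orange for day 10 and blue for day 20, with circles, squares and triangles for replicates 1, 2 and 3. Day 10 replicate 3 (orange triangles) lies below replicates 1 and 2 for Paneth, goblet and enteroendocrine sums, the last through Reg4. It lies above them for enterocyte, ileum, mucosal defence and plasma carrier genes. The 3 day 20 libraries lie close together in every list.

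Genes of cell division were lower at day 20. All 20 S phase genes (median -3.44) and all 22 mitosis genes (median -5.50) were called lower at day 20. Mcm6, part of the helicase that opens replication origins, fell from 169, 132 and 157 to 6.92, 7.04 and 5.01 CPM (-4.60 ± 0.20). Top2a, the topoisomerase that untangles chromosomes at mitosis, fell from 259, 290.3 and 169.6 to 4.93, 3.13 and 3.28 CPM (-5.98 ± 0.28), and the proliferation marker Mki67 from 168, 209 and 94.5 to 2.32, 2.48 and 2.45 CPM. The 2 lists summed to 139, 136 and 145 CPM and 47.6, 35.4 and 38.4 CPM at day 20.

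Immediate early genes, which cells switch on within minutes of stimulation, were lower at day 20. Of 17 genes 16 were lower, and Klf2 was not called (median -3.44). Fos stood at 587, 551 and 712 CPM at day 10 and 5.15, 4.41 and 4.93 at day 20 (-6.99 ± 0.23, adjusted p = 1.8e-10), and its partner Jun at 708, 634 and 854 and 41.8, 38.1 and 41.5 CPM (-4.18 ± 0.21). The 3 libraries of each day were close together in both genes.

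Genes of the other liver cell types were higher at day 20. All 13 Kupffer genes (median 4.49; 5.34 without day 10 replicate 3), all 9 sinusoidal endothelial genes (5.16; 5.96), all 9 stellate genes (3.84; 4.68) and all 11 fibroblast genes (4.80; 5.73) were called higher, with 12 of the 13 Kupffer genes called without that library. Of 10 general endothelial genes 9 were higher and Vwf was not called (3.86; 4.41). With scaling by total counts alone 11 Kupffer, 8 sinusoidal, 7 stellate, 9 fibroblast and 8 general endothelial genes were called higher. None of these lists had a lower call with that scaling. Clec4f, a lectin of Kupffer cells, stood at 0.727, 2.2 and 4.58 CPM at day 10 and 65.4, 59.7 and 62.2 at day 20 (4.69 ± 0.44; 5.48 without replicate 3). Dnase1l3, a secreted nuclease of sinusoidal endothelium, went from 1.61, 2.2 and 3.08 to 139, 134 and 144 CPM, and Dcn, the matrix proteoglycan decorin, from 1.48, 2.16 and 5.01 to 227, 237 and 252 CPM. The fibroblast list summed to 5.06, 6.6 and 21.5 CPM at day 10 and to 355, 358 and 376 at day 20. Of 5 smooth muscle genes tested 3 were higher and 2 were not called (median 1.79). With scaling by total counts alone 2 were higher (median 0.74). The lone mast cell gene tested, Kit, which is not exclusive to mast cells, was lower (-2.41 ± 0.24).

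Bile duct markers were mixed, and several of them are known from crypt epithelium as well. Of 8 cholangiocyte genes 4 were higher and 3 lower, with a median of 1.08 that was 0.05 with scaling by total counts alone. Spp1, the secreted phosphoprotein osteopontin, was higher (6.38 ± 0.39; 7.13 without day 10 replicate 3). The keratin gene Krt7 fell from 137, 130.2 and 132 to 3.68, 2.86 and 3.39 CPM (-5.33 ± 0.20) and the chloride channel gene Cftr from 86.8, 85.1 and 57.1 to 0.662, 0.348 and 0.828 CPM (-6.94 ± 0.37).

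Lymphoid and granulocyte genes were low at both days. The T and NK cell list summed to 6.93, 6.6 and 14.7 CPM at day 10 and 11.1, 10.8 and 10.6 at day 20. Over all genes tested 30.8% were called higher and 40.3% lower, and the counts of these short lists are to be read beside those shares. Of 13 T and NK cell genes tested 5 were higher and 1 lower. Their median was 0.63, 1.59 without day 10 replicate 3 and -0.41 with scaling by total counts alone. Itgae, the integrin that holds lymphocytes within epithelium, was the lower one (-2.12 ± 0.36). Of 8 B and plasma cell genes tested 2 were higher and 2 lower, and their median of -0.87 became 0.07 without day 10 replicate 3. Jchain, which joins secreted IgA and IgM, was higher (3.64 ± 0.50; 4.27 without that library). Of the 4 neutrophil genes tested 2 were higher and 1 lower (median 1.95), all under 3 CPM in every library, and both higher calls were fragile. That of S100a9 was lost without either day 10 replicate 1 or 2 or any day 20 library, with a replicate block (adjusted p = 0.052) and with scaling by total counts alone (0.22). That of S100a8 was lost without day 20 replicate 2 and with scaling by total counts alone (0.093). Of 3 erythroid genes all were higher (median 4.45; 5.54 without day 10 replicate 3), among them the haem synthesis gene Alas2 at 1.39, 1.75 and 2.89 CPM and 206, 198 and 208 CPM.

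Interferon genes differed in both directions. Of 14 interferon-stimulated genes 10 were higher, 1 (Oas1a, -2.39 ± 0.19) was lower and 3 were not called, with a median of 1.69. With scaling by total counts alone 6 were higher, with a median of 0.70. Bst2, which tethers budding viruses, went from 9.36, 10.2 and 14.9 to 299, 287 and 296 CPM (4.68 ± 0.22). Among 13 genes driven by interferon gamma, 5 GTPase genes were higher and all 7 genes of MHC class II presentation were lower (median of the list -1.22). With scaling by total counts alone 2 of the list were higher and 7 lower, with a median of -2.27. The GTPase gene Iigp1 went from 2.6, 2.69 and 9.69 to 269.5, 297 and 278 CPM (5.85 ± 0.44; 6.74 without day 10 replicate 3). Cd74, the chaperone of class II molecules, fell from 619, 582 and 842 to 119, 102 and 114 CPM (-2.60 ± 0.22), and H2-Ab1, a class II chain, from 173, 176 and 305 to 57.6, 50.4 and 53.3 CPM (-2.02 ± 0.25).

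Clock genes differed in both directions. Of 16 genes 12 were higher and 3 lower, with a median of 1.25 that was 0.25 with scaling by total counts alone. The repressor gene Nr1d1 was higher, from 24.1, 29.6 and 31 to 172, 157 and 159.7 CPM (2.53 ± 0.17), as was the output factor gene Tef, from 5.91, 7.01 and 5.21 to 57.9, 56.6 and 57 CPM (3.24 ± 0.18). The activator gene Arntl, whose protein drives Nr1d1, was lower, from 31.1, 22.8 and 30.6 to 17.1, 16.5 and 17 CPM (-0.74 ± 0.16), and so was Per1 (-1.42 ± 0.20). The labels give no time of day.

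PEDF itself was higher at day 20. Serpinf1 (chr11:75410029-75422623, minus strand, GRCm38.p6) stood at 5.91, 10 and 15.6 CPM at day 10 and 1064, 1021 and 1048 at day 20, a log2 fold change of 6.64 ± 0.36 (adjusted p = 2.7e-09). The libraries labelled day 10 had 0.565, 0.96 and 1.5% of the day 20 mean. The medians of the 35 plasma protein genes in the same libraries were 0.685, 0.953 and 2.14%. Serpinf1 lay below their interquartile ranges in replicate 1 (0.633 to 0.877%) and replicate 3 (1.83 to 2.61%). In replicate 2 it lay within the range (0.891 to 1.24%). Of the 6 genes in the list of PEDF and its proposed receptors and partners, 3 were higher, 1 lower and 2 not called, with a median of 0.31 that was -0.59 with scaling by total counts alone. Ppara, the nuclear receptor of fat oxidation, went from 18.2, 16.2 and 14.8 to 220.3, 219 and 227 CPM (3.76 ± 0.16). Lrp6, a Wnt co-receptor, went from 26.3, 32.5 and 19.9 to 45.7, 46.4 and 45.1 CPM (0.80 ± 0.20), but was -0.11 and not called with scaling by total counts alone, and its relative Lrp5 stood at 15.4, 16.7 and 9.93 and 14.2, 11 and 11.8 CPM and was not called. Pnpla2, a triglyceride lipase, stood at 108, 104 and 105 CPM and 89.6, 87.5 and 85 CPM with an adjusted p of 0.1. It was called lower by DESeq2 (adjusted p = 0.049) and with a stricter filter on low genes (0.039). Both Pnpla2 and Lrp5 were called lower with scaling by total counts alone (adjusted p = 0.00013 and 0.0037). The same held in the fit limited to the compared libraries without day 10 replicate 3 (0.0094 and 0.0395). Rpsa, a ribosomal protein gene that also encodes the laminin receptor and has processed copies in the genome, fell from 235, 334 and 170.0 to 68.8, 63.1 and 55.9 CPM (-1.98 ± 0.23).

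Some abundant genes were nearly equal between the days. Of 12 housekeeping genes 4 were higher, 2 lower and 6 not called, with a median of 0.12 that was -0.84 with scaling by total counts alone. Actb, which encodes beta-actin, stood at 2564, 2312 and 2981 CPM and 2165, 2216 and 2174 CPM and was not called, while Rplp0, a ribosomal protein gene, fell (-2.10 ± 0.21) and B2m, the shared chain of MHC class I, rose (2.44 ± 0.23). Ribosomal protein genes took 2.87 to 2.94% of the counts at day 10 and 0.582 to 0.606% at day 20. Among the genes of at least 200 CPM in every library, those with the smallest differences included Eif5a, Atp5b, Cyc1, Phb2 and Oat. 3 of them (Atp5b, Cyc1 and Phb2) encode mitochondrial proteins of the inner membrane, and Atp5b stood at 2128, 1833 and 1986 CPM at day 10 and 1949, 1904 and 1879.8 at day 20. With scaling by total counts alone these 5 and Actb were called lower, as for Cyc1 at -0.91.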

How the data were processed

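RNA sequencing of 17 libraries makes up the series, and 9 labelled liver (days 0, 10 and 20, 3 each) were used; the intestinal libraries were not used here. Each file holds counts per gene deposited by the authors, unnormalised whole numbers keyed by NCBI gene identifier. STAR, Partek and mm10 are named, without versions, per the submitters' processing notes; the counting program and its use of strand are not given in the sources used here, so overlapping antisense genes cannot be told apart. Of 24594 identifiers 24570 matched the RefSeq gene table of GRCm38.p6. Genes passing filterByExpr (minimum count 10, minimum total 15) in all 9 libraries were fitted with edgeR 4.0.16 in R 4.3.3: TMM scaling, glmQLFit, glmQLFTest for day 20 minus day 10, Benjamini-Hochberg adjustment over all 16694 genes, calls under 0.05. Day 0 entered through the gene filter, the scaling and the shared estimate of spread, and 16028 genes were tested in the 6 compared libraries alone. DESeq2 1.42.0 was an alternative. The fit was also run on simulated data with few changed genes and the same spread for every gene. That run could not test the scaling or the replicate differences seen here.

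The comparison and its 50 gene lists were chosen with earlier results of these data known, so lists are described by counts and medians without a set test. Of 691 listed genes 684 matched. Named genes are the 10 largest rises and falls of at least 20 CPM whose groups did not overlap, without predicted models, pseudogenes and receptor segments; up to 4 highest members of each list and up to 3 called members against its direction; Alb, Olfm4, Lyz1, the PEDF genes and 5 X and Y genes; and the 6 least different genes of at least 200 CPM. Results of some named genes are not reported here. Saa1, Saa2, Lcn2, Apoa4, Pdk4, Acot2, Foxa1, Tcf7l2, Znrf3, Vwf and Klf2 are named besides, chosen after their values were seen because they were list members without a call. Same-numbered libraries are not paired by the labels, and the main fit has no replicate block.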

Additional observations from a re-analysis of the deposited data

How the results depend on the processing

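The counts of called genes were recomputed under 16 alternatives, 1 of them (leaving out the unmatched identifiers) chosen after seeing the data, which gave 5291 higher and 6543 lower. Scaling by total counts alone gave 2410 genes higher and 10230 lower (2018 and 8686 at least 2-fold), against 5150 and 6720 (3769 and 5341). A stricter filter, with 11538 genes tested, gave 4437 lower, of which 2980 at least 2-fold; fewer genes were tested by construction. Leaving out each library in turn gave 4791 to 5491 higher and 6688 to 6809 lower (3685 to 4157 and 5256 to 5890 at least 2-fold). DESeq2 gave 5183 and 6879, and left Fabp6 and Reg3b without an adjusted p. The log2 fold change reversed with scaling by total counts alone for Dpp4 (-0.22), Slc11a2 (-0.86), Lrat (-0.40), Clock (-0.36), Lrp6 (-0.11), Eif5a (-0.90) and Cyc1 (-0.91), and in the fit limited to the compared libraries without day 10 replicate 3 for Fabp2 (0.35); the cause was not tested. In the fit that kept day 0 and left out day 10 replicate 3, Fabp2 (0.36) and Cd3e (-0.02 to 1.27) also became positive, without a call. Of 220 named genes that were called, 204 kept their direction and call in each alternative that tested them and gave an adjusted p, which for some genes leaves out DESeq2 or the stricter filter. Replicate numbers are shared by the labels only: deviations of same-numbered libraries correlated at 0.030, 0.0021 and 0.022, not each number best with its own, and the fit with a replicate block gave 5116 higher and 6499 lower. The depth of day 10 replicate 3 limits genes of a few counts.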
